A study of Mus musculus with 10 samples.

Results

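Pif1, Cep55 and Psrc1 are 3 genes of dividing cells, compared here between libraries of untreated and of treated tumours. The tumours are those of the TH-MYCN mouse neuroblastoma model, and the treatment was a pair of kinase inhibitors. The 3 genes are among the 54446 counted in 10 libraries. They were chosen by their measured counts, which were higher in treated than in untreated libraries with little overlap. The difference between treated and untreated libraries is therefore what picked them and is given as a description, with no test. All 3 passed the filter on low counts, which left 14956 genes.

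Pif1 is a DNA helicase, known from yeast and human cells to unwind G-quadruplexes and to act at telomeres and at stalled replication forks. Cep55 is a scaffold of the midbody, the bridge that joins daughter cells at the end of mitosis. In human cells it recruits Tsg101 and Alix, and through them the ESCRT-III filaments that cut the bridge. Psrc1, also called DDA3, binds microtubules of the mitotic spindle, brings the depolymerase Kif2a to it, and was first described in mouse cells as a gene induced by p53. The 3 products thus act in different steps of the cell cycle, on DNA, on the spindle and on the last link between daughter cells.

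The TH-MYCN strain carries a human MYCN transgene under a tyrosine hydroxylase promoter and forms neuroblastoma in the sympathetic nervous system. All libraries came from flash-frozen tumours of this strain, 3 from untreated mice, 3 after 24 h and 4 after 5 days of treatment. Treated mice received MLN8237, or alisertib, which blocks the Aurora-A kinase needed to build the spindle, and AZD6738, or ceralasertib, which blocks ATR, the kinase that answers stalled replication. Both drugs were given together according to the sample titles, although the study's design text writes "or" between their names. The labels give no ages and do not tie libraries to individual animals, so p-values measure only the spread among these libraries, which may be technical.

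Libraries held 5576926 to 5696436 counts. Markers of adrenergic neuroblasts were present in all of them, with 0 of 16 at 0 in any library. One library stood apart. In 5-day library 1 the 16 adrenergic markers summed to 961 CPM (normalised read counts, scaled to a common library size), against a mean of 3234 CPM in the other 5-day libraries, while 14 macrophage, 9 fibroblast and 8 adipocyte markers held 9.73, 13.0 and 20.0 times the mean of those libraries. The biological coefficient of variation between libraries was 40.8% with it and 18.9% without it. The levels and fold changes of the 3 genes in the 5-day group are therefore given with and without this library. DESeq2 was run with all libraries only. In bulk tumour RNA, fewer cells of a type and less RNA per cell cannot be told apart.

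In the mm10 genome all 3 genes lie on the plus strand. Pif1 (ENSMUSG00000041064) spans chr9:65587160-65595967, Cep55 (ENSMUSG00000024989) spans chr19:38055011-38074423 and Psrc1 (ENSMUSG00000068744) spans chr3:108383839-108388231. Their exons add up to 4388, 2905 and 3364 bases in GENCODE release M21, and no exon of another gene overlaps them. The small nucleolar RNA gene Gm23300 lies inside an intron of Cep55 and shares 0 exon bases with it.

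Promoter windows are shown because genes of late cell cycle phases commonly share short motifs near their start. The CHR element, most often TTTGAA and in some genes TTCGAA, is bound by the MuvB complexes that repress such genes in resting cells and activate them in G2 phase, and CCAAT is bound by NF-Y. The windows run from 250 bases before to 50 bases after the start site in the RefSeq table for GRCm38.p6, of which mm10 is the browser name. Both are plus strand, at chr19:38054734-38055033 for Cep55 and chr3:108383554-108383853 for Psrc1. Capitals mark both forms of the CHR element and CCAAT, read on either strand, and the start site is base 1.

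Cep55: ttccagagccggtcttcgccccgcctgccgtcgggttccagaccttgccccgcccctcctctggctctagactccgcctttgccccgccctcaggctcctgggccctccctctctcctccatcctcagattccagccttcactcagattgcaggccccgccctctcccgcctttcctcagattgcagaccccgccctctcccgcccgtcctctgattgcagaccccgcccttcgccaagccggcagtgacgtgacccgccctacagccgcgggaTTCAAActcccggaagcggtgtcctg

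Psrc1: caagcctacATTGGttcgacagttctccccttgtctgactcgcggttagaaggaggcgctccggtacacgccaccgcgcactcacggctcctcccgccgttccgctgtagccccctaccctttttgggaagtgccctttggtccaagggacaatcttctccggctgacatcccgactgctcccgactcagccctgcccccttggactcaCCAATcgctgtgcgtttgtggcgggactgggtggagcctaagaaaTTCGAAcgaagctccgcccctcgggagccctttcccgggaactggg

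The Cep55 window held TTTGAA on the minus strand, at bases 25 to 30 after the start, and no CCAAT. In the genome this match covers chr19:38055008-38055013, across the first base of the GENCODE gene at 38055011. The Psrc1 window held TTCGAA at bases 5 to 10 after the start (chr3:108383808-108383813), 1 CCAAT at bases -41 to -37 and another on the minus strand at bases -241 to -237. Among all 27025 promoters of the table, 18.1% held TTTGAA, 1.57% TTCGAA and 37.9% CCAAT, each on either strand. The E-box CACGTG (7.24% of promoters) and the half-site of p53 (8.37%) matched neither window, which says only that these letters are not in these bases. Pif1 was matched to no window of the table and is named only.

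**Figure D1:**
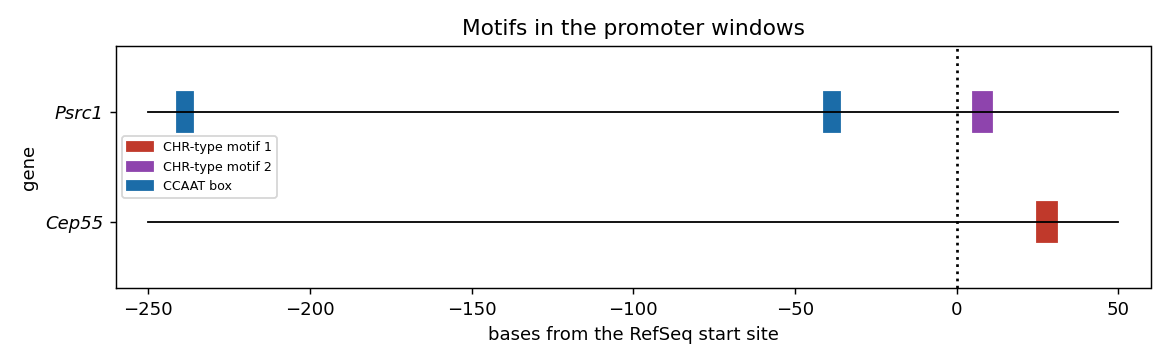
Position of motif matches, on either strand, in the promoter windows of Psrc1 and Cep55 (x axis, bases from the RefSeq start site, dotted line at the start). CHR-type motif 1 is TTTGAA and motif 2 is TTCGAA. The CHR-type match lies within 30 bases after the start in both genes, and the CCAAT matches are in Psrc1 alone of these windows.

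In untreated tumours the 3 genes were expressed at moderate and similar levels. Mean levels were 56.0 ± 2.22 CPM for Pif1, 45.3 ± 3.33 CPM for Cep55 and 67.1 ± 5.15 CPM for Psrc1 (SD, n = 3 each). These levels exceeded those of 68.7%, 63.2% and 73.3% of the 14956 tested genes. Per kilobase of exon the order was Psrc1 with 20.0, Cep55 with 15.6 and Pif1 with 12.8 CPM per kb. The untreated libraries differed little, with a coefficient of variation of 3.96% for Pif1, 7.36% for Cep55 and 7.68% for Psrc1. In counts, the lowest value of any gene in any library was 120 (Cep55) and the highest 859 (Psrc1), so counting error was 3.41% to 9.13% of a value.

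Pif1 stood at 103, 98.4 and 129 CPM in 24 h libraries 2, 3 and 4, against 54.7, 58.5 and 54.7 CPM in untreated libraries 1, 2 and 3. The lowest 24 h library was well above the highest untreated one, and the groups did not overlap. The mean at 24 h was 110 ± 16.3 CPM (SD, n = 3), 1.97 times the untreated mean. Library 4 set much of the spread at 24 h, and the Pif1 difference in mean log2 level of 0.96 was 0.84 without it.

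Cep55 stood at 82.7, 75.6 and 80.4 CPM in the 24 h libraries, against 43.1, 49.1 and 43.6 CPM in untreated ones. It was the tightest of the 3 genes at 24 h, with a mean of 79.5 ± 3.63 CPM (SD, n = 3), and its ratio of 1.76 to the untreated mean was the lowest. Psrc1 stood at 125, 121 and 149 CPM in the 24 h libraries, against 72.1, 67.4 and 61.8 CPM in untreated ones. Its mean of 132 ± 15.1 CPM (SD, n = 3) was 1.96 times the untreated mean. Library 4 was the highest 24 h library for Pif1 and Psrc1, and library 2 for Cep55.

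All 3 genes lay higher in every 24 h library than in every untreated one, which 7.1% of all tested genes did (6.67% were lower in the same way). In the fit of all 10 libraries edgeR's quasi-likelihood test called 0 genes (0%) between 24 h and untreated at a Benjamini-Hochberg adjusted p of 0.05, with 263 at an unadjusted p under 0.05, and DESeq2 called 0. With only the libraries of both groups 7 of 14283 genes (0.049%) were called, and without 5-day library 1 there were 2 of 14699 (0.0136%). Pif1 and Cep55 were in both sets and Psrc1 in the first, and since this contrast picked the genes nothing is read from that.

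**Figure D2:**
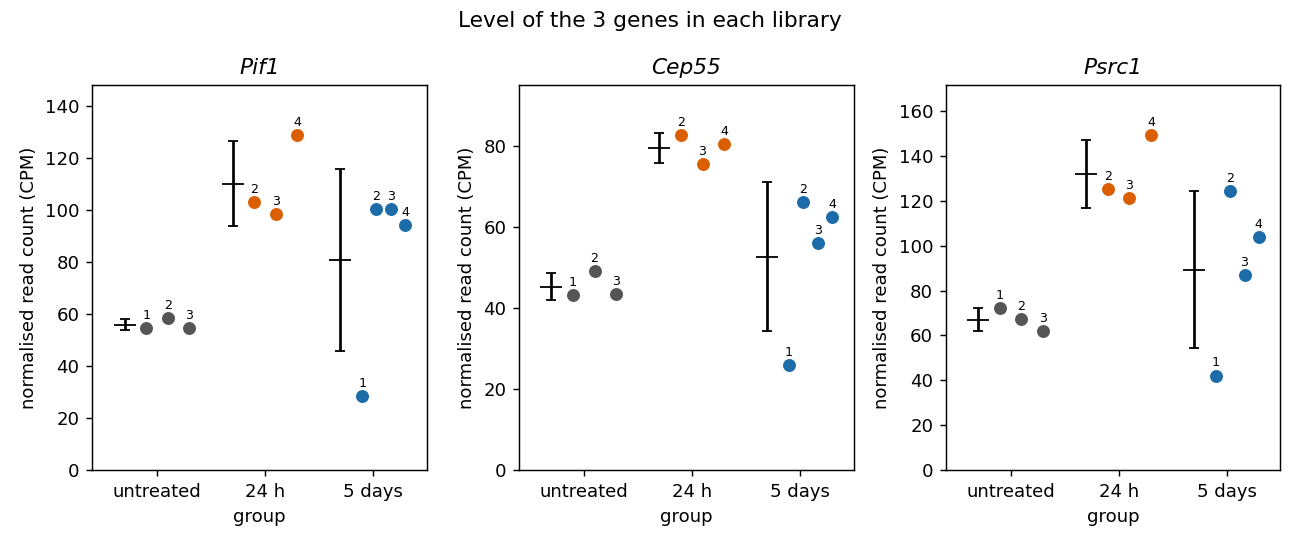
Normalised read count in CPM (y axis, from 0) of Pif1, Cep55 and Psrc1 in each library of the untreated, 24 h and 5-day groups. Points are libraries with their replicate number, and bars left of them give the mean and SD. The 24 h points lie above all untreated points in each panel, and 5-day library 1 lies below them.

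At 5 days the group split into 3 libraries above the untreated range and 1 below it, for each gene. Pif1 stood at 28.6, 100.2, 100.35 and 94.1 CPM in 5-day libraries 1 to 4, a mean of 80.8 ± 35.0 CPM (SD, n = 4), or 98.2 ± 3.56 CPM (SD, n = 3) without library 1. Libraries 2 to 4 were close together, and library 1 held 0.291 times their mean. Relative to untreated tumours the ratio of means was 1.44, and 1.76 without library 1.

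Cep55 stood at 26.0, 66.2, 56.1 and 62.6 CPM in 5-day libraries 1 to 4, with a mean of 52.7 ± 18.3 CPM (SD, n = 4). Its ratio to the untreated mean was 1.16, the lowest of the 3 genes, and 1.36 without library 1, where the mean was 61.6 ± 5.12 CPM (SD, n = 3). Psrc1 stood at 42.2, 124, 86.8 and 104 CPM, with a mean of 89.3 ± 34.9 CPM (SD, n = 4), 1.33 times the untreated mean. Without library 1 its mean was 105 ± 18.7 CPM (SD, n = 3) and the ratio 1.56, with library 2 inside the 24 h range and library 3 nearest to the untreated range. Without library 1, 6.48% of all genes lay higher in every 5-day library than in every untreated one, and with it 3.91% did, the 3 genes not among them. In the fit of all 10 libraries edgeR's quasi-likelihood test called 0 genes (0%) between 5 days and untreated at an adjusted p of 0.05, with 1257 at an unadjusted p under 0.05, and DESeq2 called 21 (0.15%). Without library 1 edgeR called 0 of 14699 (0%), with 1252 at an unadjusted p under 0.05.

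The 24 h and 5-day values both entered the choice of genes, so the fit of 5 days against 24 h over all 14956 genes is not independent of that choice and is given as a description of the change between the times. In the order untreated, 24 h and 5 days, means of 56.0, 110 and 80.8 CPM for Pif1 put the 5-day group in the middle, as they did for Cep55 and Psrc1. Between 5 days and 24 h the log2 fold change was -0.44 ± 0.36 (SE) for Pif1, -0.59 ± 0.27 for Cep55 and -0.56 ± 0.30 for Psrc1. None was called, with edgeR quasi-likelihood adjusted p of 0.64, 0.581 and 0.581, and 0% of all genes were called in this comparison (942 at an unadjusted p under 0.05, and 3, or 0.0206%, called by DESeq2). Without 5-day library 1 the values were -0.17, -0.37 and -0.33, with adjusted p of 0.716, 0.602 and 0.613 by the same method and 0% of genes called (1140 at an unadjusted p under 0.05). Cep55 alone of the 3 showed no overlap, with its highest 5-day library at 66.2 CPM and its lowest 24 h library at 75.6 CPM, which 4.4% of all genes did in this direction, and 6.67% without 5-day library 1. For Pif1 and Psrc1 the 2 groups overlapped at single libraries, 5-day libraries 2 and 3 for Pif1 and library 2 for Psrc1.

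Because all 3 genes are tied to division, their level was also set against genes of G2 and M phase in the same library, a ratio in which the scaling between libraries cancels. The 29 genes of that list, which hold none of the 3, summed to 4877 to 5628 CPM in untreated libraries, 5758 to 6517 CPM at 24 h, 2035 CPM in 5-day library 1 and 5623 to 6423 CPM in 5-day libraries 2 to 4. As a percentage of this sum Pif1 was at 1.02 to 1.12% in untreated libraries, 1.58 to 2.04% at 24 h and 1.40 to 1.78% at 5 days. Cep55 was at 0.805 to 0.894%, 1.27 to 1.31% and 0.974 to 1.28% in the same groups. Psrc1 was at 1.20 to 1.35%, 1.92 to 2.36% and 1.54 to 2.15%.

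On this scale 5-day library 1 no longer fell below the untreated libraries. It held 1.40% for Pif1, 1.28% for Cep55 and 2.07% for Psrc1, each above every untreated library, and for Cep55 it was the highest of the 5-day group. The sum itself was low in this library, at 2035 CPM against 4877 to 5628 CPM in untreated libraries. A gene that falls less than the sum rises on this scale. Each of the 3 genes did so while its CPM lay below every untreated library. All 3 genes were above the untreated range in all 7 treated libraries, as were 68 of the 14956 tested genes (0.455%), or 75 (0.501%) with library 1 left out. At 24 h alone 1.61% of genes were, and at 5 days alone 1.7%, or 1.87% without library 1. Of the 29 G2 and M genes themselves 1 was above the untreated range in all 7 treated libraries, of 27 spindle genes 3, of 28 cytokinesis genes 1, of 25 p53 targets 3, and 0 of 25 helicase and 26 replication genes. The 29 genes make up the sum they are divided by, so their shares cannot all rise together. Their count is therefore not comparable with that of genes outside the sum. Without library 1 the counts over the other 6 treated libraries were 6 G2 and M, 5 spindle, 2 cytokinesis and 3 p53 target genes, and again 0 helicase and replication genes. The comparison with untreated libraries is the one that picked the 3 genes, so their place among the 68 is a description. The part of the macrophage, fibroblast and adipocyte RNA of library 1 in its ratios was not tested.

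**Figure D3:**
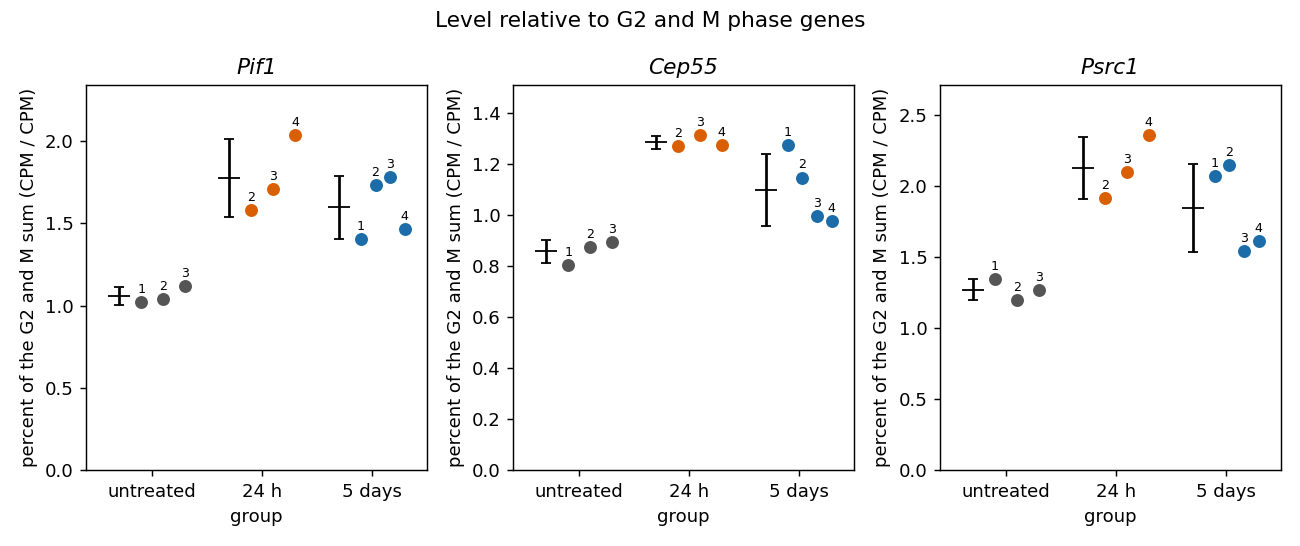
Level of Pif1, Cep55 and Psrc1 as a percentage of the summed CPM of 29 G2 and M phase genes in the same library (y axis, from 0), by group. Points are libraries with their replicate number, and bars give the mean and SD. All 7 treated libraries lie above the untreated ones in each panel, 5-day library 1 included, in which the sum was lowest.

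Around Cep55, genes of abscission and of the central spindle were compared between 24 h and untreated tumours. Tsg101, the ESCRT-I subunit it recruits, was at 99.4 ± 3.66 CPM at 24 h and 95.8 ± 11.2 CPM in untreated tumours (SD, n = 3 each). Pdcd6ip, which encodes Alix, was at 131 ± 12.1 against 147 ± 4.04 CPM, and Chmp4b, the main ESCRT-III filament subunit, at 167 ± 19.7 against 162 ± 8.49 CPM (24 h against untreated, SD, n = 3 each). Plk1, the mitotic kinase that holds Cep55 off the midbody until late mitosis in human cells, was at 285 ± 19.6 against 214 ± 13.5 CPM. Kif23, the kinesin of the central spindle, was at 175 ± 30.9 against 115 ± 6.06 CPM. Anln, the anillin of the cleavage furrow, was at 148 ± 28.0 against 127 ± 25.9 CPM, and Aurkb, the kinase that delays abscission, at 125 ± 19.7 against 109 ± 10.6 CPM. Of 28 tested cytokinesis and abscission genes 19 were higher and 9 lower at 24 h, 0 were called, and the median log2 fold change was 0.15, against 0.81 for Cep55 and -0.01 over all genes, of which 48.5% were higher. The other 3 genes of this list, Chmp1a, Chmp1b and Prc1, were listed at 0 in all 10 libraries.

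Among DNA helicases the means pointed mostly the other way from Pif1. Of 25 tested DNA helicase genes 6 were higher and 19 lower at 24 h, 0 were called, and their median log2 fold change was -0.11, against 0.98 for Pif1. Blm, the helicase of Bloom syndrome, was at 90.1 ± 15.1 CPM at 24 h and 97.7 ± 6.02 CPM in untreated tumours (SD, n = 3 each). Wrn, the helicase of Werner syndrome, was at 21.1 ± 1.58 against 20.7 ± 2.77 CPM, and Dna2, a nuclease and helicase that processes replication intermediates, at 63.5 ± 8.91 against 72.2 ± 12.2 CPM. Rtel1, a helicase of telomeres, was at 115 ± 8.30 against 101 ± 2.92 CPM. At 5 days 6 helicase genes were higher and 19 lower than in untreated tumours (median -0.13), and without 5-day library 1 there were 9 and 16 (median -0.10).

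Psrc1 acts with spindle genes, of which 22 of 27 tested were higher and 5 lower at 24 h, with 0 called and a median log2 fold change of 0.30, against 0.97 for Psrc1. Kif2a, the depolymerase it brings to the spindle, was at 102 ± 10.6 CPM at 24 h and 107 ± 7.95 CPM in untreated tumours (SD, n = 3 each), while the related Kif2c was at 194 ± 16.5 against 153 ± 3.10 CPM. Mapre3, the microtubule end-binding protein EB3 with which Psrc1 interacts, was at 24.6 ± 3.79 against 22.2 ± 1.12 CPM. Tpx2, the spindle activator of Aurora-A, was at 346 ± 30.3 against 270 ± 23.6 CPM.

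The G2 and M list, in which 26 of 29 genes were higher at 24 h and 0 were called, had a median log2 fold change of 0.26, and none of its members reached that of Cep55. The list of G1/S and replication genes had 1 higher and 25 lower (median -0.08, 0 called). Of the G2 and M genes 3 were lower at 24 h, Top2a and Cdk1 among them. Top2a, the topoisomerase of condensing chromosomes, was at 721 ± 85.5 CPM at 24 h against 722 ± 77.4 CPM in untreated tumours. Cdk1, the kinase of mitotic entry, was at 204 ± 12.5 against 210 ± 10.2 CPM (SD, n = 3 each). Among the 26 higher genes, Ccnb1 was at 211 ± 21.3 against 157 ± 14.6 CPM. Cdc20, also among them, was at 328 ± 28.4 against 248 ± 7.85 CPM (SD, n = 3 each). Of 25 p53 targets 21 were higher and 4 lower (median 0.45, 0 called), and 7 of them exceeded the log2 fold change of Cep55. Outside these targets no tested gene of the 6 lists did, while 478 of all 14956 genes did. Pif1, Cep55 and Psrc1 were chosen for higher levels in treated libraries, so their height over the lists is in part a product of that choice. With only the libraries of both groups, the p53 targets Sesn2 and Trp53inp1, which restrain mTORC1 signalling and promote cell death, were called (edgeR quasi-likelihood adjusted p = 0.0183 and 0.0382), and 0 genes of the other lists. The calls outside the lists and the 3 genes were Gpnmb and Mmp12, both known from macrophages. Gpnmb was at 239 ± 24.6 CPM at 24 h and 106 ± 13.8 CPM in untreated tumours, while Mmp12 had means of 48.9 ± 2.99 CPM at 24 h and 17.9 ± 4.64 CPM in untreated tumours (SD, n = 3 for each mean), with adjusted p of 0.0183 and 0.0247 by the same method.

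At 5 days the list medians lay near 0 with all libraries, at 0.02 for cytokinesis, 0.00 for spindle and -0.07 for G2 and M genes, with 0 called in each. Without 5-day library 1 they were 0.12 (22 of 27 higher), 0.22 (23 of 27) and 0.19 (24 of 29). The fitted log2 fold changes of Pif1, Psrc1 and Cep55 were 0.53, 0.42 and 0.22 with all libraries and 0.81, 0.65 and 0.45 without library 1. Cep55 was then exceeded by 4 spindle, 4 G2 and M and 8 p53 target genes, such as the kinesin Kif18a at 0.59 and Aurka at 0.53. With all libraries 7 cytokinesis, 2 helicase, 1 spindle, 3 G2 and M and 17 p53 target genes exceeded it, as did 4887 of all genes. The G1/S and replication genes had a median of -0.30 with library 1 and -0.03 without it, and p53 targets 0.57 and 0.22.

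**Figure D4:**
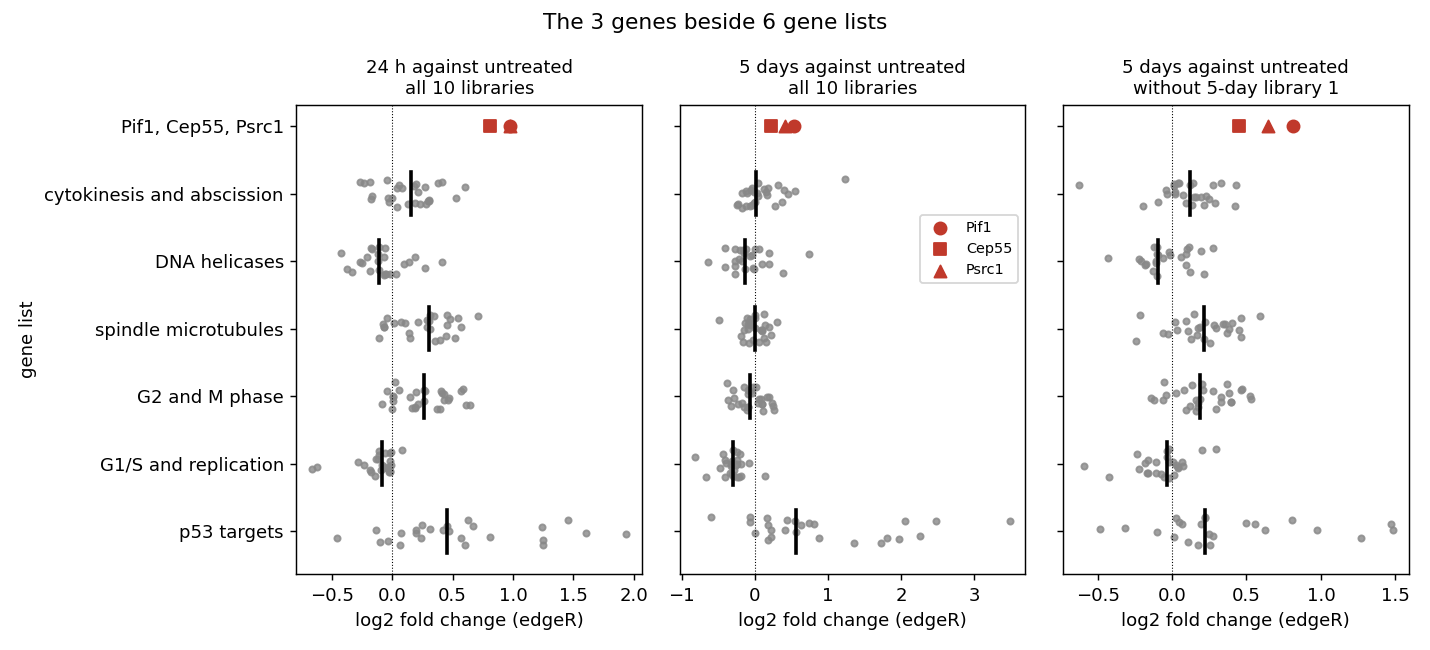
Log2 fold change (x axis, edgeR) of Pif1, Cep55 and Psrc1 (red symbols) and of the tested genes of 6 lists (grey points, 1 per gene, with a black bar at the median), for 24 h against untreated and for 5 days against untreated with and without 5-day library 1. At 24 h the 3 genes, at 0.81 to 0.98, lie beyond every list gene other than p53 targets. Their height over untreated libraries entered their choice.

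Macrophage and Schwann cell marker sums were higher in every 24 h library than in every untreated one, while the sums of all other marker lists overlapped. Over 14 macrophage markers, 0 of them at 0, the sum was 1244 to 1494 CPM at 24 h and 571 to 971 CPM in untreated libraries. Over 7 Schwann cell markers, up to 2 at 0 in a library, it was 34.6 to 69.3 CPM at 24 h and 15.4 to 25.3 CPM in untreated libraries. The adrenergic sum was 3159 to 3525 CPM at 24 h and 3318 to 4188 CPM in untreated libraries, so these ranges overlapped. Their part in the levels of Pif1, Cep55 and Psrc1 was not tested. In 5-day library 1, where macrophage markers reached 13562 CPM, all 3 genes were at their lowest level of the 10 libraries.

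To find which genes of the whole table followed these 3 most closely, the distance between log2(CPM + 0.5) profiles was taken over the 10 libraries, each centred on its own mean, among 12501 genes with a mean of at least 5 CPM. It is a root mean square in log2 units. The profile nearest to Pif1 was that of Aurka, the gene of Aurora-A, at a distance of 0.162, followed by Hyls1, a centriole gene (0.179), Troap, a spindle-associated gene (0.183), Psrc1 (0.187) and Gtse1 (0.189). The median distance of all genes to Pif1 was 0.649. Aurka itself was at 197 ± 26.2 CPM at 24 h and 129 ± 9.17 CPM in untreated tumours (SD, n = 3 each), and at 57.5 CPM in 5-day library 1.

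Nearest to Cep55 were Gtse1, which binds microtubules and p53 (0.108), the kinetochore motor Cenpe (0.122), Depdc1b (0.136), Psrc1 (0.139) and Arhgef39 (0.140). Nearest to Psrc1 was Cep55 (0.139) among all 12501 genes, followed by Gtse1 (0.148), Ddias (0.175), Arhgef39 (0.180) and Pif1 (0.187). Cep55 and Psrc1 were thus closer to each other than either was to Pif1, whose distance to Cep55 was 0.207, the eighth nearest gene to Pif1 and number 42 for Cep55. Gtse1 was the single gene among the nearest 5 of all 3. Since the genes were chosen for a shared direction, their nearness to each other is in part a product of that choice.

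The low 5-day library 1 weighs in these distances. Without it, the nearest to Pif1 were Psrc1 (0.162), Rnf169 (0.167), the p53 target Bbc3 (0.169), Aurka (0.171) and the checkpoint kinase gene Chek2 (0.171). Cep55 was then nearest to Gtse1 (0.106) and Odf2 (0.119), and Psrc1 to Cep55 (0.146), Gtse1 (0.150) and Chek2 (0.154). Of the 8 other genes near any of the 3 over 10 libraries, 7 had a promoter window. Of these 7, 6 held CCAAT and 1, Aurka, held TTTGAA.

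**Figure D5:**
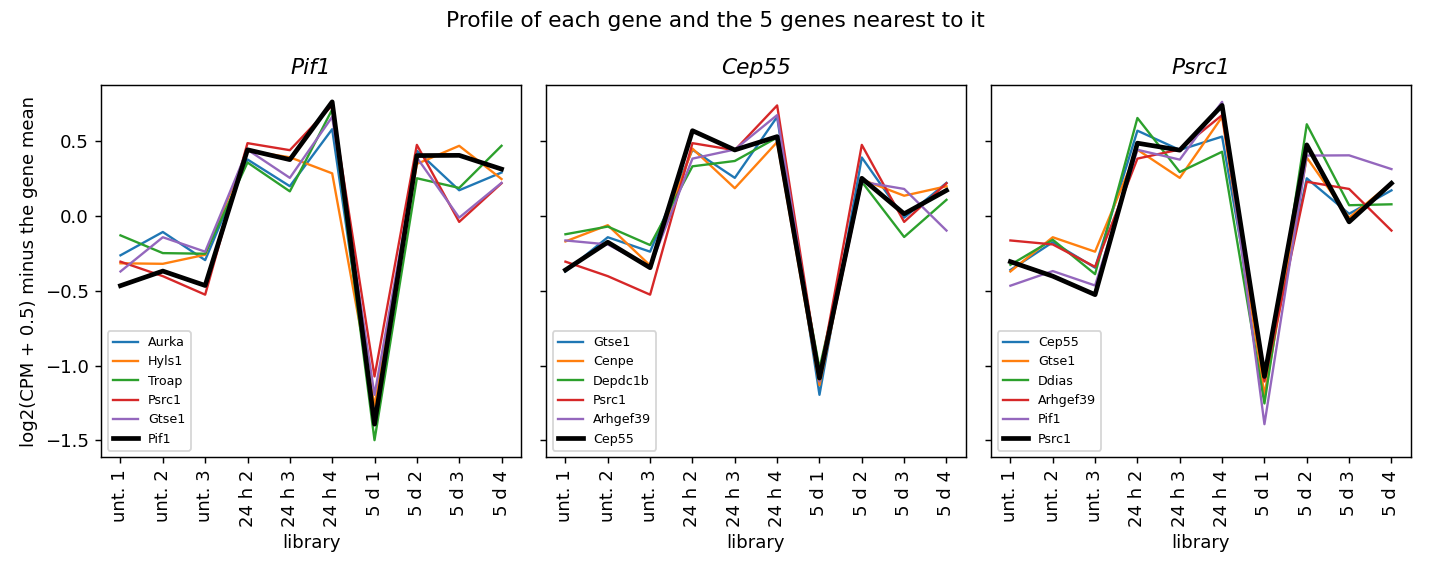
Centred log2(CPM + 0.5) level (y axis) of Pif1, Cep55 and Psrc1 (black) and of the 5 genes nearest to each (coloured) over the 10 libraries (x axis, untreated, 24 h, 5 days). All lines dip in 5-day library 1 and are higher in the 24 h libraries than in the untreated ones.

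CHR-type motifs like those in the Cep55 and Psrc1 windows were found in 19 of the 26 G2 and M genes with a window (73.1%) and in 3 of 24 G1/S and replication genes (12.5%), against 19.4% of all promoters. In the other lists 14 of 26 cytokinesis, 13 of 23 spindle, 6 of 21 helicase and 3 of 18 p53 target windows held one. These counts pool both forms. TTCGAA, the form in the Psrc1 window, was in 4 G2 and M, 1 helicase and 1 G1/S and replication window. It was in 0 cytokinesis, spindle and p53 target windows, against 1.57% of all promoters. CCAAT, which the Psrc1 window held and the Cep55 window did not, was in 22 of the 26 G2 and M windows (84.6%), against 37.9% of all promoters. It was also in 16 of 24 G1/S and replication, 13 of 21 helicase, 14 of 23 spindle, 11 of 26 cytokinesis and 8 of 18 p53 target windows.

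The genomic neighbours of the 3 genes were looked up as well. Only tested protein-coding genes were considered. The nearest is Celsr2, a cadherin gene 2619 bases beyond the end of Psrc1, at 84.1 ± 14.6 CPM at 24 h and 87.1 ± 16.6 CPM in untreated tumours (SD, n = 3 each). Plekho2, 7119 bases before Pif1, was at 14.6 ± 2.52 against 12.3 ± 3.57 CPM, and Myof, 11433 bases before Cep55, at 22.6 ± 3.61 against 16.7 ± 6.99 CPM. Of the 12 nearest tested protein-coding genes, 2 on each side of each of the 3, 6 were higher and 6 lower at 24 h, with log2 fold changes of -0.44 to 0.44, and 0 were called with all libraries. With only the libraries of both groups 10 of the 12 were tested, and without 5-day library 1 there were 11, with 0 called in either.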

How the data were processed

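Polyadenylated tumour RNA was sequenced in 10 libraries, from untreated mice (n = 3) and after 24 h (n = 3) and 5 days (n = 4) of the drug combination. The authors deposited whole-number counts per Ensembl gene, 1 file per library. The submitters' processing notes name mm10 as the build and list TopHat2 2.1.1, HISAT2 and edgeR with no role. No counter, annotation or strand setting is given in the sources used here. Of 54446 gene IDs, 54409 matched GENCODE release M21.

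Models were fitted to the counts by edgeR 4.0.16 under R 4.3.3. A filter with filterByExpr (minimum count 10, minimum total 15) left 14956 genes. These were scaled with TMM (factor 0.812 in 5-day library 1 and 1.001 to 1.039 elsewhere) and tested with a robust quasi-likelihood F test, 1 mean per group over all 10 libraries. P-values were adjusted by Benjamini-Hochberg over all tested genes, and those under 0.05 were called. Standard errors were derived from the F statistic. CPM use the scaled library sizes. No libraries of a group agreed within counting noise. Alternatives were DESeq2 1.42.0, its size factors, other filters, only the compared groups, a replicate block and each library left out, and leaving out 5-day library 1 from a fit of only the compared groups was added after the data were seen, as were the shares relative to the G2 and M sum and their values without that library. Only the edgeR fit of 24 h against untreated was also run on simulated counts. These had less spread than the 10 libraries and no outlying library, so nothing is drawn from that run. Motifs were searched on both strands in the first window listed per gene.

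The 3 genes and the 6 pathway and 12 marker lists were chosen with earlier results of these data known. Genes named include the 3, fixed partners of each, 2 tested protein-coding neighbours on each side, the 5 nearest profiles and genes called in any edgeR fit. The calls of DESeq2 are given as counts only. Python 3.11.15 with matplotlib 3.10.9 drew the figures.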

Additional observations from a re-analysis of the deposited data

Results flagged for a closer look

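In each group of 4 libraries, the gap between the most distant library and its nearest neighbour was divided by the range of the group and set against Dixon's 95% critical value. Of 24 values checked in the 5-day group 9 exceeded it, where chance gives about 1 in 20 for a single value. The 24 values come from the same 4 libraries and are not independent, so the 9 are not separate departures. For Pif1 the ratio was 0.913, from library 1 at 28.6 CPM and the others at 94.1 to 100.35 CPM. Cep55 and Psrc1, whose libraries 2 to 4 were more spread, were below the critical value. The summed spindle microtubule genes had a ratio of 0.830, barely over the critical value and also from a low library 1. The summed G2 and M genes, at 0.818, fell just short of it. In the same library macrophage (0.950), fibroblast (0.888), adipocyte (0.880), T cell (0.891) and B cell (0.968) marker sums were high. Their part in the low Pif1 value was not tested. Adrenal cortex markers (0.945) and hepatocyte markers (0.976) were high in library 2, at 1591 and 307 CPM, in which Pif1 was at 100.2 CPM, between libraries 3 and 4.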

How the results depend on the processing

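The count of genes called between 24 h and untreated was 0 with all libraries, 7 with only the libraries of both groups and 2 without 5-day library 1. DESeq2 called 21 genes between 5 days and untreated and 3 between 5 days and 24 h, where edgeR called 0. Correlations of same-numbered libraries of different groups ran from -0.395 to 0.247, and those of differently numbered ones from -0.549 to 0.487. Between untreated and 24 h libraries the same-numbered values were 0.211 for libraries 2 and 0.247 for libraries 3. Both lay above all differently numbered values between these groups, which ran from -0.291 to 0.049. The 5-day values were centred on a mean that includes library 1, so whether the numbers pair the libraries was not settled. With the replicate block 0 genes were called in any comparison, and Pif1, Cep55 and Psrc1 had log2 fold changes of -0.31, -0.49 and -0.48 between 5 days and 24 h (adjusted p = 0.999 each, edgeR quasi-likelihood). Leaving out each library in turn gave -0.56 to -0.17 for Pif1, -0.72 to -0.37 for Cep55 and -0.76 to -0.33 for Psrc1 in that comparison, and none passed. The difference in mean log2 level between 24 h and untreated was 0.84 to 1.03 for Pif1, 0.77 to 0.87 for Cep55 and 0.87 to 1.02 for Psrc1 with each library left out, and 0.91, 0.88 and 0.89 with medians in place of means. Between 5 days and untreated it ranged over 0.21 to 0.81 for Pif1, -0.0051 to 0.44 for Cep55 and 0.11 to 0.63 for Psrc1. The sign for Cep55 was reversed without 5-day library 2 (-0.0051), the highest of its group at 66.2 CPM. The mean log2 level was then taken over 5-day libraries 1, 3 and 4, at 26.0, 56.1 and 62.6 CPM. Why library 1 was low was not tested. In the 150 bases before the start 0 promoter windows of the 3 genes held TTTGAA and 0 held TTCGAA, against 1 each in the whole window, because both matches lie after the start.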
